A study of Mus musculus with 7 samples.

Results

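Zfp genes are the mouse genes that carry the symbol Zfp, for zinc finger protein, and a number. They were chosen here by symbol alone: Zfp followed by digits and an optional letter or number suffix in the array's probe annotation, leaving out Zfp42 and Zfp365. The annotation named 278 such genes on 378 probes, and 170 genes on 218 probes were measured, meaning that their signal exceeded background (a detection p-value under 0.01) on at least 1 of 7 arrays. The other 108 genes were below background on all 7 arrays, so the counts below speak of the measured members only. Among the members nearest that threshold, Zfp418 and Zfp948 came in at a detection p of 0.0088 on their brightest array, and Zfp324 and Zfp93 stayed out at 0.01. Of the 25697 probes of the whole array, the same rule left 9263 genes.

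Most Zfp proteins bind DNA through tandem C2H2 zinc fingers, in which paired cysteines and histidines hold a zinc ion. Many also carry a KRAB domain, which recruits the co-repressor TRIM28 and, through it, histone methylation and heterochromatin proteins. In embryonic stem cells this machinery is known for silencing retroelements and for keeping imprinted regions methylated. The symbol is not a family in the strict sense: Zfp36 and its relatives carry CCCH fingers and bind messenger RNA, and several other members work in RNA processing, at the ribosome or in mitosis. KRAB members often lie in clusters of near-identical copies, and a probe may take up signal from a paralog, so values of clustered members are less certain.

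The series profiled cells of OG2 mice, which carry a green fluorescent protein reporter under Pou5f1 regulatory sequence, with Illumina bead arrays and 1 array per sample. LinNeg_BM is lineage-negative bone marrow, the fraction without surface markers of mature blood lineages, given with the potency label unipotent. The 6 samples labelled pluripotent are embryonic stem cells (ESC), the LinNeg_iPSC lines 1.1.2, 7 and 9 reprogrammed from lineage-negative marrow, line 1.1 reprogrammed from lineage-positive marrow (LinPos_iPSC), and MEF_iPSC reprogrammed from embryonic fibroblasts. The labels give no age, sex, reprogramming vector or passage, and their tissue field reads bone marrow for every sample, also for ESC and MEF_iPSC, so the cell type field set the groups. Each line is 1 sample, and nothing says that lines came from separate animals, so the p-values below measure only the spread between these cultures. The single marrow array was assumed to vary like the 6 pluripotent arrays.

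Marker genes were checked against the labels. Of 10 pluripotency markers, 0 were above background in marrow and 9 or 10 on each pluripotent array. All 8 measured granulocyte-monocyte markers, all 8 erythroid markers and all 7 lymphoid markers were above background in LinNeg_BM, although this population is labelled lineage-negative, against 0 or 1, 0 or 1 and 0 to 5 on the pluripotent arrays. Of 10 pan-leukocyte markers, 10 were above background in marrow and 3 or 4 on each pluripotent array. Among them, Laptm5 stood at 11.53 to 13.48 in the cultures, against 14.55 in marrow. By median level, fibroblast markers were highest in line 7, with 6 of 6 measured genes above background there against 4 or 5 in the other pluripotent cultures and 2 in marrow. Twist1 was higher in lines 1.1.2 (6.65) and 9 (6.50) than in line 7 (6.39). Col1a2, Pdgfrb and Postn were below background on every array. Dcn, a collagen-binding proteoglycan of fibroblasts, reached 10.33 in line 7 and lay between 5.83 and 6.98 in the other pluripotent cultures. In such bulk samples, fewer cells of a type and less RNA per cell cannot be told apart. Between 10423 and 10904 probes were above background per array, and of the 170 measured Zfp genes 136 were above background in marrow and 129 (MEF_iPSC) to 141 (LinPos_iPSC) in the pluripotent cultures.

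The first comparison asked which Zfp genes differed between marrow and the 6 pluripotent cultures. In limma 45 of the 170 measured members were higher in the pluripotent cultures and 46 were lower, at an adjusted p under 0.05 over all 9263 genes. These shares, 26.5% higher and 27.1% lower, lay near those of all genes tested, of which 27% were higher and 28.5% lower. In either direction 91 members (53.5%) were called, against 55.5% of all genes, so the share of Zfp genes called was near the background. The median difference was -0.08 on the log2 scale for Zfp genes and 0.04 for all genes, with quartiles of -0.91 and 0.85 against -0.83 and 0.81. Differences over 2-fold were as frequent among Zfp genes (42.9%) as among all genes (42.6%), while those over 4-fold were found for 12.4% and 17.5%. Zfp differences ran from -4.10 to 4.69, within a range over all genes of -10.16 to 9.77.

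The even split depends on the scaling. With arrays scaled to a common median in place of quantile normalization, 32 members were higher and 66 lower (18.8% and 38.8%, against 19.7% and 37.7% of all genes), as the median difference of all genes moved to -0.31 and that of the Zfp genes to -0.47. All 6 pluripotent arrays lay on the same side of marrow for 127 of the 170 members (74.7%, against 77.9% of all genes). By detection, 98 members were above background on all 7 arrays, 13 only in marrow and 34 only in pluripotent cultures, and members of the last 2 kinds could hardly differ in the other direction. Among the 98 members above background everywhere, 27 were higher and 19 lower (27.6% and 19.4%, against 26.7% and 24.9% of the 5825 genes above background everywhere).

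**Figure D1:**
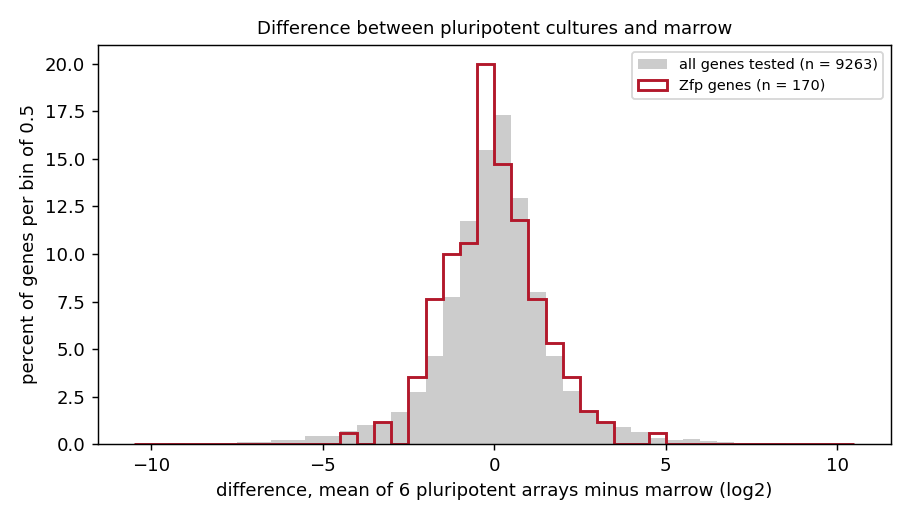
Distribution of the difference between the mean of the 6 pluripotent arrays and the marrow array (log2, bins of 0.5), as a percent of the 170 measured Zfp genes (red line) and of all 9263 genes tested (grey). Both distributions centre near 0, with medians of -0.08 and 0.04, and the tails beyond 5 in either direction hold genes other than Zfp genes.

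Zfp819, a KRAB protein linked to retroelement repression in mouse embryonic stem cells, had the largest rise. It was below background in marrow, at 4.56, and stood at 8.90, 9.26 and 9.55 (lowest, median and highest of the 6 pluripotent arrays; normalized log2 intensity, as for all levels below). The pluripotent cultures were at least 12-fold higher (log2 difference 4.69 ± 0.27 (SE), limma, adjusted p = 3.42e-06), where "at least" sets marrow at its lowest signal called above background. ESC was highest and LinPos_iPSC lowest among them, and the whole range of the 6 was narrow beside the distance to marrow.

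Zfp532, whose human counterpart is a partner of the chromatin reader ZMYND8, was above background in every sample. Its level was 6.27 in marrow and 9.32, 9.52 and 9.79 in the pluripotent cultures, 9.51-fold higher (adjusted p = 4.54e-06). Zfp473, whose human counterpart acts in the 3′ end processing of histone mRNA with the U7 small nuclear RNP, rose from 5.77 to 8.76, 8.96 and 9.12, 9.15-fold (adjusted p = 4.26e-06). In both genes all 6 cultures lay close together and far above marrow. A second probe gave a difference of 2.06 for Zfp473, against 3.19 for the probe shown. The second probe of Zfp532 was below background in marrow, at 5.29, and stood between 8.56 and 8.95 in the cultures.

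Zfp296, a factor of embryonic stem cells that binds Klf4 and aids reprogramming, stood at 6.50 in marrow and at 8.53, 9.03 and 9.43 in the pluripotent cultures, 5.71-fold higher (log2 difference 2.51 ± 0.29 (SE), adjusted p = 0.000176). Zfp428 rose 5.95-fold, from 6.38 to 8.36, 8.95 and 9.55, with its 6 cultures spread wider than those of the genes above. Its second probe was above background on 1 of 7 arrays and gives no second estimate of the rise. In both Zfp296 and Zfp428, LinPos_iPSC was the lowest of the pluripotent cultures.

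The 12 largest rises were completed by Zfp37 (at least 2.97-fold), Zfp941 (at least 3.77-fold), Zfp459 (at least 2.45-fold), Zfp334 (at least 2.15-fold) and Zfp750 (at least 1.91-fold), all below background in marrow, and by Zfp280b (4.72-fold) and Zfp979 (4.2-fold). Zfp750 is known as a regulator of epidermal differentiation, and Zfp37 as a KRAB gene first described in testis. Their adjusted p-values lay between 2.54e-05 for Zfp37 and 0.00852 for Zfp750. Zfp334 is uncertain, since its second probe was above background in marrow alone and differed by -0.74. These 12 genes were chosen with every pluripotent culture on the same side of marrow, so the lack of overlap with marrow is no result.

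Promoter windows of RefSeq (assembly GRCm38.p6, 250 bases before to 50 after a gene's start) are shown for 3 large rises and for Zfp672, the largest fall, chosen to span a retroelement repressor, an RNA-processing factor and a reprogramming factor. Capitals mark the letters of a searched motif on either strand: the octamer ATGCAAAT, the CCAAT box, the GC box GGGCGG, the E-box CACGTG, the cyclic AMP response element TGACGTCA and the ETS letters CCGGAAG. Zfp819 at chr7:43606919-43607218 (+ strand), Zfp473 at chr7:44748568-44748867 (- strand, the first-listed of its 3 windows), Zfp296 at chr7:19577037-19577336 (+ strand) and Zfp672 at chr11:58323316-58323615 (- strand, the first-listed of its 3 windows) read as follows.
Zfp819: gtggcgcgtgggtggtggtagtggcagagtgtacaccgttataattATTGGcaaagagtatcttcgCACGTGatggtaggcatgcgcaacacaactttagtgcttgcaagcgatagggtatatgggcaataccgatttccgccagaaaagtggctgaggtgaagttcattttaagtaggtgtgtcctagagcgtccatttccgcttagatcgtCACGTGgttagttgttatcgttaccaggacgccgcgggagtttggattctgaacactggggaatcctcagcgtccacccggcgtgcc
Zfp473: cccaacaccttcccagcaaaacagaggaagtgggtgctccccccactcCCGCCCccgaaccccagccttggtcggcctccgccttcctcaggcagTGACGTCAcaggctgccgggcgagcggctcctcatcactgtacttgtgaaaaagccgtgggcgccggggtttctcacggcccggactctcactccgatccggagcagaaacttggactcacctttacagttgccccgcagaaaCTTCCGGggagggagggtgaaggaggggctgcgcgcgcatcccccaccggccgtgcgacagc
Zfp296: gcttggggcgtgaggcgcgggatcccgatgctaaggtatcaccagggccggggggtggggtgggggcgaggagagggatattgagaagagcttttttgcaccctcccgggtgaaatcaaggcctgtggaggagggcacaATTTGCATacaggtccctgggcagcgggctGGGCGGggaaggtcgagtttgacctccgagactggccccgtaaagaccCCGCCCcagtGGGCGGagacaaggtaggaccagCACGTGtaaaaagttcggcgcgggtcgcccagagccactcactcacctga
Zfp672: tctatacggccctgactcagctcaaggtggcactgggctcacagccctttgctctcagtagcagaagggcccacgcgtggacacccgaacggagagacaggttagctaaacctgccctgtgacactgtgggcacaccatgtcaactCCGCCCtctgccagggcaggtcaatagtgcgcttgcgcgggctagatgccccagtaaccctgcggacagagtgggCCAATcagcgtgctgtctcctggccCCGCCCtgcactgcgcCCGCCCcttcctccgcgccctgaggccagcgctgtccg
The Zfp819 window held E-box letters in more than 1 place and a CCAAT box but no GC box. The Zfp296 window held the octamer, GC boxes and E-box letters, and the Zfp473 window held the response element, ETS letters and a GC box. The Zfp672 window held GC boxes and a CCAAT box. A match describes these letters and is not a binding site measured here.

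**Figure D2:**
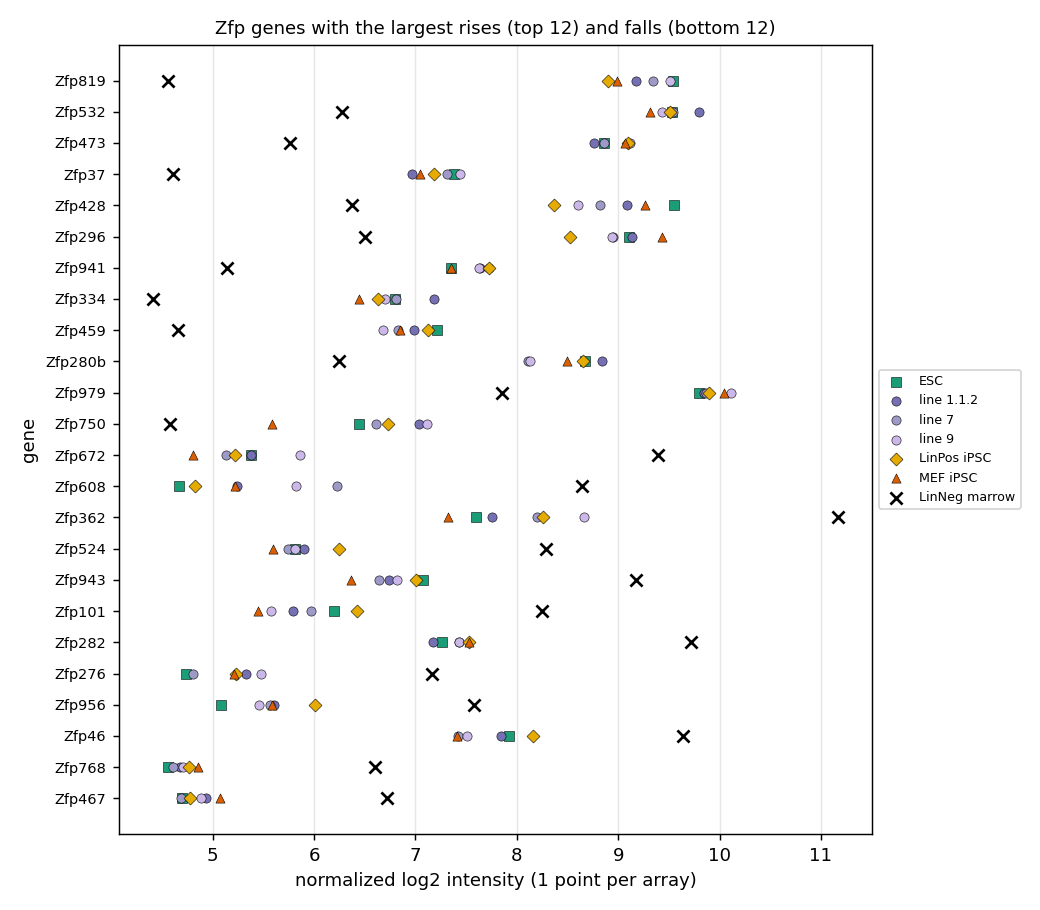
Normalized log2 intensity (1 point per array) of the 12 Zfp genes with the largest rises (top) and the 12 with the largest falls (bottom); crosses are marrow and the other symbols the 6 pluripotent cultures. The genes were chosen with all 6 pluripotent arrays on the same side of marrow, so the cross lies outside the 6 other points by construction. Points below about 5.5 are below background.

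Zfp672 had the largest fall. Its level was 9.40 in marrow and 4.80, 5.29 and 5.86 in the pluripotent cultures, of which 1, line 9, was above background. The fall was 17.2-fold (log2 difference -4.10 ± 0.33 (SE), limma, adjusted p = 2.26e-05), and its size rests on values below background in the other 5 cultures. Zfp608, known as a repressor of the recombinase genes Rag1 and Rag2 in mouse thymocytes, fell 9.93-fold, from 8.64 to 4.67, 5.23 and 6.22, and only lines 7 and 9 were above background for it. Without line 7 its log2 difference was -3.49 (adjusted p = 0.000384), against -3.31. Line 7, the highest of the 6 for Zfp608 at 6.22, was also the culture with the most fibroblast marker signal (median level of the 6 measured markers 7.04, against 5.93 to 6.34 in the others), whose part in this value was not tested.

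Zfp362 was bright in marrow, at 11.17, and stayed above background on all 6 pluripotent arrays at 7.32, 7.98 and 8.66, 9.23-fold lower (log2 difference -3.21 ± 0.44 (SE), adjusted p = 0.000462). MEF_iPSC and ESC held the lowest of these levels and line 9 the highest. Zfp282, whose human counterpart was described as a repressor of a T-cell leukaemia virus promoter, went from 9.72 to 7.17, 7.43 and 7.53, 5.03-fold lower, with little spread between cultures. Zfp524, a telomere-binding protein in human cells, fell 5.42-fold from 8.29 to 5.59, 5.81 and 6.25.

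The remaining falls among the 12 largest were Zfp943 (5.28-fold), Zfp101 (5.08-fold, above background in 5 of 6 pluripotent cultures), Zfp956 (4.08-fold, in 4 of 6) and Zfp46 (3.81-fold). Zfp276 (at least 3.02-fold), Zfp467 (at least 2.22-fold) and Zfp768 (at least 2.04-fold) were below background in all 6. Zfp467 is known for steering marrow stromal cells between bone and fat. Adjusted p-values of these 7 genes lay between 3.98e-05 for Zfp768 and 0.000882 for Zfp46. As with the rises, the 12 falls were chosen with all 6 pluripotent arrays on the same side of marrow, so the lack of overlap is no result.

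Grouped by known role, the KRAB proteins of imprinting and retroelement control had 2 measured members of 7 on the list. Both rose, Zfp819, given above, and Zfp809, where 27% of all genes were higher. So few members give no result about the list as a whole. Zfp809, which recognises the primer binding site of murine leukaemia virus and brings in TRIM28, stood at 6.11 in marrow and 6.71, 6.96 and 7.41 in the pluripotent cultures, 1.89-fold higher (adjusted p = 0.0161). Zfp445 and Zfp568 were below background on every array. Zfp57, Zfp708 and Zfp932 were not analysed here.

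Of 5 measured factors linked to embryonic stem cells (11 on the list), 2 rose, 1 fell and 2 did not pass the test, against 27% higher and 28.5% lower of all genes. Zfp281, a regulator of Nanog and of the exit from naive pluripotency, rose 3.48-fold from 7.34 to 8.77, 9.16 and 9.51 (adjusted p = 0.000565), beside Zfp296. Zfp322a, known to help maintain mouse embryonic stem cells, was lower in the pluripotent cultures than in marrow: 6.59 against 5.26, 5.54 and 6.11, of which 3 were above background (2-fold, adjusted p = 0.0164). Zfp131 (log2 difference -0.27) and Zfp207 (-0.31), a kinetochore protein, did not pass, with adjusted p-values of 0.298 and 0.221. Zfp217, Zfp352, Zfp384, Zfp462 and Zfp706 were below background on all arrays.

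Of 10 measured factors linked to blood cells, 4 were higher and 3 lower in the pluripotent cultures, near the 27% and 28.5% of all genes. Zfp318, needed for the splicing that lets B cells make IgD, rose from 7.43 to 8.43, 8.56 and 8.86, 2.31-fold (adjusted p = 0.00147). Zfp91, a ubiquitin ligase of NF-kB signalling, rose 1.81-fold, and the call was lost at adjusted p = 0.217 with arrays scaled to a common median. Zfp105 (at least 1.3-fold) and Zfp423, an antagonist of the B cell factor EBF1 whose marrow level below background allows no fold, were above background in 4 and 3 of the 6 pluripotent cultures. Lower were Zfp608 and Zfp467, given above, and Zfp335, a chromatin factor of T cell maturation (3.28-fold, 7.35 against 5.22, 5.67 and 5.97). Zfp335 was below background in lines 7 and 9. Zfp521, a factor of blood progenitors, differed by -0.34, Zfp609 by -0.01 and Zfp148 by 0.24, none past the test. The measured granulocyte-monocyte, erythroid and lymphoid markers were all above background in marrow, and their part in these values was not tested.

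Of 9 measured members that act on RNA, at the ribosome or in mitosis, 2 rose and 0 fell, against 27% and 28.5% of all genes. By the probe standing for each gene, the largest difference of the other 7 was -0.56 for Zfp385a, a p53 cofactor. Zfp106, an RNA-binding protein of motor neurons and muscle, rose 2.03-fold (adjusted p = 0.000904), and its second probe differed by 0.93. The rise of Zfp330, a nucleolar protein, is uncertain, as described with chromosome 8 below. Zfp598, the ubiquitin ligase that marks collided ribosomes, stood at 6.60 in marrow and 6.03, 6.26 and 6.74 in the cultures, on both sides of marrow. Zfp593 (-0.39), Zfp638 (0.47), Zfp326 (0.30) and Zfp346 (-0.03) did not pass either. Dimmer Zfp326 probes, above background on all 7 arrays, differed by 0.75 and 0.65, more than the probe used.

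The CCCH proteins Zfp36 and Zfp36l1, which shorten the life of mRNAs with AU-rich elements, stood on opposite sides of marrow and neither passed the test. Each also missed the threshold in 12 of 14 alternatives. Leaving out a gene's most extreme culture, as done below, narrows the spread by construction. Zfp36, also called tristetraprolin, was at 10.61 in marrow and 8.91, 9.66 and 10.32 in the pluripotent cultures (log2 difference -1.03 ± 0.46 (SE), adjusted p = 0.0907). Without line 7, its highest culture, the difference passed at adjusted p = 0.0353, and with arrays scaled to a common median at adjusted p = 0.00751. Zfp36l1 was at 11.59 in marrow and 11.81, 12.54 and 13.09 in the cultures (0.92 ± 0.40 (SE), adjusted p = 0.0824), and passed at adjusted p = 0.0197 without MEF_iPSC, its lowest culture. Of the 2 measured developmental regulators, Zfp36l1 again and Zfp516, a factor of brown fat, Zfp516 rose 2.21-fold from 5.78 to 6.87, 6.91 and 7.04 (adjusted p = 0.000385).

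The partners through which KRAB proteins act were examined from a list of 21 co-repressor and heterochromatin genes, of which 16 were measured. In the pluripotent cultures 8 were higher, 1 lower and 7 not past the test, against 27% higher and 28.5% lower of all genes, with a median difference of 0.62 against 0.04. Trim28, the KRAB-binding scaffold, stood at 12.21 in marrow and 13.22, 13.37 and 13.66 in the cultures, 2.26-fold higher (log2 difference 1.18 ± 0.19 (SE), adjusted p = 0.00121). Smarcad1, a chromatin remodeller that works with TRIM28, rose 3.09-fold, and Trim33 2.55-fold. Setdb1, the histone methyltransferase recruited by TRIM28, differed by 0.08 (adjusted p = 0.77).

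Smaller rises were those of Daxx, a chaperone of histone H3.3 (1.78-fold), Cbx5, which encodes HP1 alpha (1.96-fold), Sumo2 (1.71-fold) and the deacetylase gene Hdac1 (1.45-fold). Atrx, the partner of Daxx, was below background in marrow and near it elsewhere, so its call at adjusted p = 0.0499 carries no fold. Dnmt1, the maintenance DNA methyltransferase, fell 1.67-fold, from 11.24 to 10.25, 10.52 and 10.69 (adjusted p = 0.0115). Mphosph8 and Pphln1 were below background throughout. These co-repressor differences were not recomputed under the alternative settings.

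**Figure D3:**
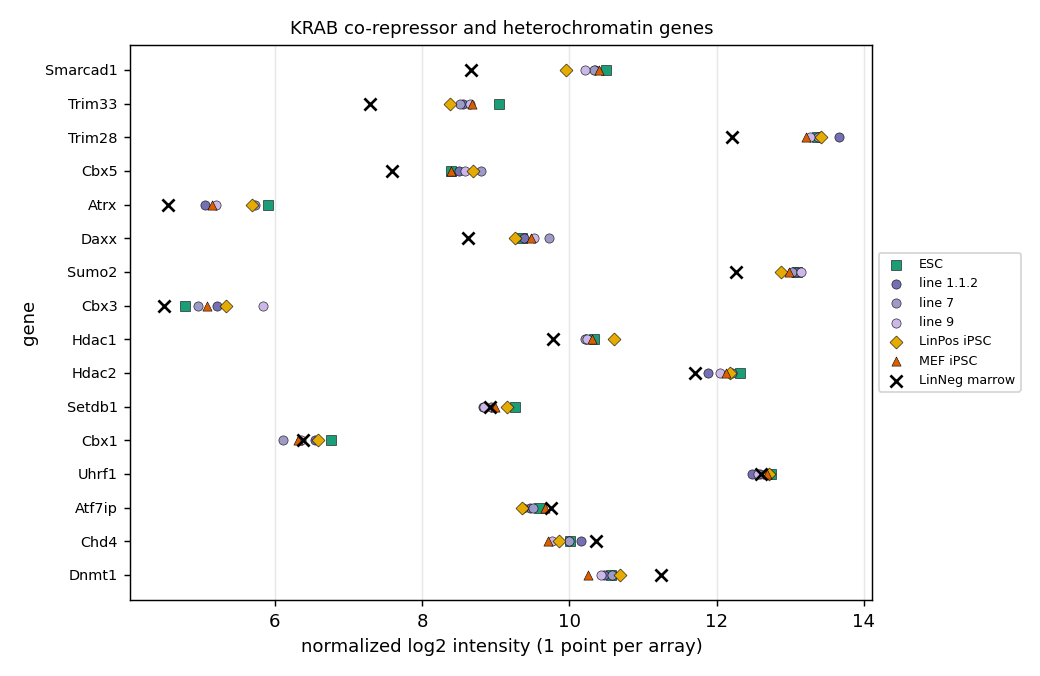
Normalized log2 intensity (1 point per array) of the 16 measured KRAB co-repressor and heterochromatin genes, ordered by difference; crosses are marrow and the other symbols the 6 pluripotent cultures. Trim28 lies at 12.21 in marrow and at or above 13.22 in every culture, and Dnmt1 is the gene whose marrow value lies farthest above its cultures.

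Zfp genes are unevenly spread over the genome, and chromosome 7 alone held 74 of the 278 annotated genes and 46 of the 170 measured. Of these 46, 9 rose and 13 fell, and of 18 measured on chromosome 17, 3 rose and 6 fell. Chromosome 6 had 0 higher and 4 lower of 8 measured members, chromosome 2 had 4 higher and 1 lower of 7, and chromosome 4 had 5 higher and 2 lower of 11. Over all genes 27% were higher and 28.5% lower, and with so few members a chromosome these counts are a description only. Runs of at least 3 measured members with at most 3 other genes between neighbours numbered 11 and held 47 members, by the gene order of GRCm38.p6. Calls fell in both directions in 3 of these runs and in 1 direction only in 6, and the others held no call.

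The chromosome 6 run from Zfp398 to Zfp467 held the 3 falls of Zfp282, Zfp956 and Zfp467 given above and, between them, Zfp212, which stood at 10.17 in marrow and 9.97, 10.03 and 10.20 in the cultures (log2 difference -0.11, adjusted p = 0.586). By this probe Zfp212 was level with marrow beside clear falls. Its other probes above background on at least 1 array differed by -0.51, -0.37, 0.03 and 0.10. Zfp398 differed by 0.33 with 1 probe and by -1.89 with another, each above background on 1 array. The contrast between neighbours therefore depends on the probe. In the chromosome 4 run, Zfp979 rose 4.2-fold and its neighbour Zfp985 2.11-fold (9.02 against 9.97, 10.07 and 10.30), while Zfp982 and Zfp933 did not pass. The 7 members of the chromosome 13 run split: Zfp457 (at least 1.27-fold) and Zfp459 (at least 2.45-fold) rose and Zfp595 (2.33-fold), Zfp87 (1.7-fold) and Zfp738 (1.76-fold) fell. Zfp595 was above background on 3 of 7 arrays and Zfp738 on 5, so the sizes of these 2 falls rest partly on dim values. Members of these runs other than the 12 largest rises and falls were named after their values were seen.

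Promoter windows were found for 139 of the 170 measured members, 174 windows in all. The octamer ATGCAAAT (or ATTTGCAT), the letters bound by POU factors such as Oct4, occurred in 2.87% of these windows, against 1.74% of all 32851 promoter windows and 1.39% of those of genes tested. It was in 6.12% of the windows of members that rose (3 windows), in 0 of the 44 of members that fell and in 2.47% of those not called. These are counts of 5 windows in all and carry no test. The octamer and the bases around it, in capitals, are shown for these 5 members because they are the only ones that held it; the first 3 rose and the other 2 did not pass the test.
Zfp345: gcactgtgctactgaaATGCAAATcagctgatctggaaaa
Zfp296: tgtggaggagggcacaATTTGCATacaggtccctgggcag
Zfp428: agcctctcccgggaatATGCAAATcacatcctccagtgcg
Zfp207: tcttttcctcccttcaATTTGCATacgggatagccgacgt
Zfp263: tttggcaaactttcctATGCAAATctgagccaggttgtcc
The stretches lie at chr2:150485257-150485296 (- strand), chr7:19577160-19577199 (+), chr7:24506946-24506985 (+), chr11:80383097-80383136 (+) and chr16:3743852-3743891 (+) of GRCm38.p6, and the octamer begins 217, 111, 125, 166 and 231 bases before the start site. The log2 differences between pluripotent cultures and marrow were 1.03, 2.51, 2.57, -0.31 and -0.20, in the same order.

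Shares of other motifs, given as a description with no test, lay above and below those of the genes tested. A CCAAT box (CCAAT or ATTGG) occurred in 48.9% of Zfp windows against 37.9%, and a GC box (GGGCGG or CCGCCC) in 87 of 174 windows against 61.2%. The ETS letters CCGGAAG (or CTTCCGG) were in 26.5% of windows of members that rose, 15.9% of those that fell and 9.88% of those not called, against 16.6% of windows of genes tested. The cyclic AMP response element TGACGTCA was in 5.17% of Zfp windows against 2.91% and the E-box CACGTG in 6.9% against 9.82%. Median GC content was 56.7% against 60.3%. A motif may overlap another, as within runs of GC boxes, and each window was counted as holding it or not. Windows of 1 gene can overlap, so a site can count more than once. All 3 windows of Zfp473, which overlap, count toward the response element.

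The second set of comparisons placed the 3 LinNeg_iPSC lines against ESC, MEF_iPSC and LinPos_iPSC in turn. No Zfp gene passed the test in any of them. Against ESC 0 of 170 members passed in limma, as did 0% of all genes, and 17 members had an unadjusted p under 0.05 (10%, against 10.3% of all genes). Against MEF_iPSC 0 passed, against 0.0756% of all genes (0.054% higher and 0.0216% lower in the lines), with 23 members at an unadjusted p under 0.05 (13.5% and 13%). Against LinPos_iPSC 0 passed, against 0.313% of all genes (0.281% higher and 0.0324% lower), with 28 at an unadjusted p under 0.05 (16.5% and 16.1%). The lowest adjusted p of a Zfp gene was 0.335, 0.168 and 0.0872 in the 3 comparisons, and 5, 3 and 3 members differed by over 2-fold (2.94%, 1.76% and 1.76%, against 2.05%, 2.46% and 3.86% of all genes). The 3 comparisons share the same lines and rest on the spread between them, so a missed threshold does not show that the cultures were alike.

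Zfp553 came nearest to the threshold. It stood at 7.44, 7.41 and 7.51 in lines 1.1.2, 7 and 9, at 8.54 in ESC, 8.54 in LinPos_iPSC and 6.49 in MEF_iPSC, and at 6.15 in marrow. The 3 lines lay close together (SD 0.05), below ESC and LinPos_iPSC and above MEF_iPSC. The difference was -1.09 ± 0.16 (SE) against LinPos_iPSC (adjusted p = 0.0872), -1.09 ± 0.16 (SE) against ESC (adjusted p = 0.335) and 0.97 ± 0.16 (SE) against MEF_iPSC (adjusted p = 0.168). A second, dimmer probe gave the same order of groups: 5.69, 5.86 and 5.59 in the lines, 6.47 in ESC, 6.78 in LinPos_iPSC and 4.99 in MEF_iPSC.

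Other wide gaps between the lines and ESC, none past the test, were those of Zfp36 (lines 9.82, 10.32 and 9.85, ESC 8.91; adjusted p = 0.352) and Zfp869 (1.21 ± 0.39 (SE)), higher in the lines. Zfp612 was below background in ESC and above it in 2 of 3 lines. Lower in the lines were Zfp420 (lines 5.83, 5.86 and 5.88, ESC 6.59; adjusted p = 0.352) and Zfp606, below background in all 3 lines and at 5.84 in ESC. A second Zfp606 probe stood at 4.87 in ESC and at 5.70, 5.39 and 5.21 in lines 1.1.2, 7 and 9, above background only in line 1.1.2 and marrow, so that gap was not seen with both probes.

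Against MEF_iPSC the lines were higher for Zfp750, at 7.03, 6.61 and 7.11 against 5.59 (log2 difference 1.33 ± 0.25 (SE), adjusted p = 0.189). Zfp760 was above background in all 3 lines and below it in MEF_iPSC and LinPos_iPSC (at least 1.27-fold higher than in MEF_iPSC). Its second probe was below background in all 3 lines and in both of these cultures, so the gap was seen with 1 probe only. Lower in the lines were Zfp869, Zfp930 and Zfp420. Against LinPos_iPSC, Zfp160 was lower in the lines, at 5.66, 5.58 and 5.68 against 6.57 (adjusted p = 0.104), and so was Zfp606 by its brighter probe, at least 1.35-fold. The second Zfp606 probe, at 5.25 in LinPos_iPSC, did not show this gap. Zfp870 and Zfp871, members of 1 run on chromosome 17, were below background in LinPos_iPSC and above it in 2 of 3 lines, with bounds of at least 1.07-fold for Zfp870 and 1.04-fold for Zfp871.

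Over the 6 pluripotent arrays Zfp genes varied about as much as other genes. The median SD of the 157 members above background on at least 1 of the 6 was 0.26 on the log2 scale, against 0.25 for all genes, and 28 of them spanned more than 1 (17.8%, against 23%). Of 110 members above background on all 6, 13 in LinPos_iPSC and 11 in MEF_iPSC lay more than 0.5 from the median of the 6 (11.8% and 10%, against 12.2% and 10.6% of all such genes). There were 6 such members in ESC (5.45%, against 7.97% of all such genes). Each LinNeg_iPSC line had 3 (2.73%, against 3.34% to 3.68%). Since 3 of the 6 arrays are LinNeg_iPSC lines, the median lies near those lines by construction.

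Zfp869 varied most, with an SD of 1.09. Its level was 5.86 in ESC, 6.64, 6.95 and 7.62 in lines 1.1.2, 7 and 9, 7.28 in LinPos_iPSC and 9.09 in MEF_iPSC, with 8.59 in marrow, so MEF_iPSC and marrow were high and ESC low. Zfp607a stood at 8.97 in ESC, 9.38, 8.15 and 8.39 in lines 1.1.2, 7 and 9, 7.65 in LinPos_iPSC and 9.46 in MEF_iPSC, an order in which lines of the same origin lay apart and LinPos_iPSC was lowest. Zfp930 stood at 6.50 in ESC, 6.91, 6.88 and 7.61 in lines 1.1.2, 7 and 9, 7.02 in LinPos_iPSC and 8.35 in MEF_iPSC, again highest in MEF_iPSC. Zfp219, a C2H2 factor, was lower in ESC (7.90) and line 1.1.2 (8.37) than in the other 4 cultures, which lay between 9.00 and 9.14. Zfp36 was highest in line 7 (10.32), the culture with the most fibroblast marker signal, and lowest in ESC (8.91); the part of fibroblasts in this was not tested. Zfp607a was among the members higher than marrow, and its call was lost in 7 of 14 alternatives, with adjusted p up to 0.081.

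**Figure D4:**
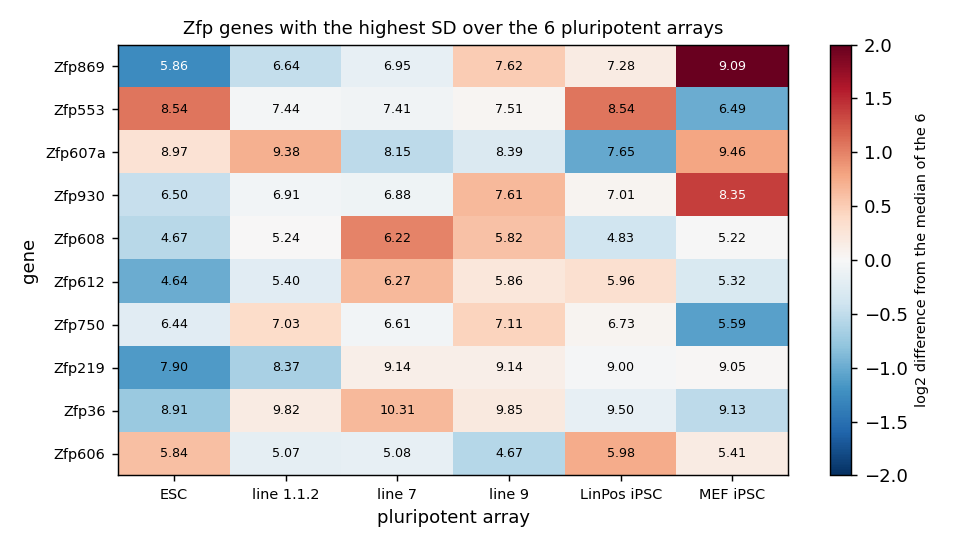
The 10 Zfp genes with the highest SD over the 6 pluripotent arrays; the number in each cell is the normalized log2 intensity and the colour its log2 difference from the median of the 6. Zfp869 and Zfp930 are highest in MEF_iPSC, Zfp553 is high in ESC and LinPos_iPSC and low in MEF_iPSC, and values below about 5.5 are below background.

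Zfp869 and Zfp930 lie on chromosome 8, whose genes as a whole differed between cultures. The median deviation of its 374 genes from the median of the 6 arrays was -0.17 in ESC, -0.07, 0.04 and 0.16 in lines 1.1.2, 7 and 9, -0.18 in LinPos_iPSC and 0.24 in MEF_iPSC. Beside it, chromosome 14 reached -0.12 in ESC and -0.06 in line 1.1.2, and every other chromosome stayed within 0.05 of 0. Zfp219, lower in ESC and line 1.1.2, is the only measured Zfp gene of chromosome 14. The part of that chromosome's shift in its values was not tested. Of the 9 measured Zfp genes of chromosome 8, 5 were above background on all 6 arrays, and all 5 lay above their median in MEF_iPSC and in line 9. Their median deviation was 0.70 in MEF_iPSC, 0.18 in line 9 and -0.26 in ESC. In MEF_iPSC the deviations were 1.98 for Zfp869, 1.39 for Zfp930, 0.70 for Zfp330, 0.28 for Zfp90 and 0.12 for Zfp868, so those of Zfp869 and Zfp930 far exceeded the shift of the chromosome and those of Zfp90 and Zfp868 did not. The part of the chromosome-wide shift in these values was not tested. Zfp869 and Zfp930 were named for their high SD, and some arrays lie above the median of any gene. The count of 5 members above their median is therefore a description only.

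**Figure D5:**
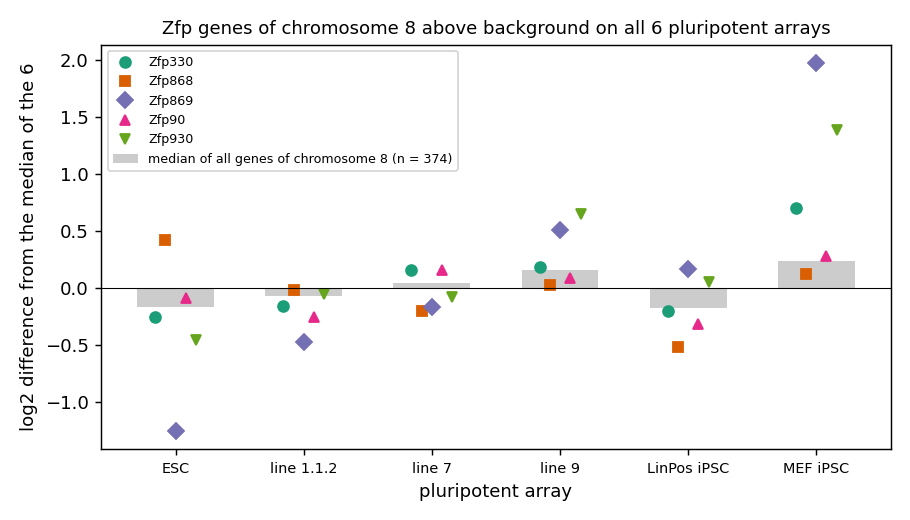
Log2 difference from the median of the 6 pluripotent arrays for the 5 Zfp genes of chromosome 8 above background on all 6 (symbols), over the median of all 374 genes of that chromosome (grey bars, from 0). The chromosome median is highest in MEF_iPSC (0.24), as are 4 of the 5 genes, Zfp869 at 1.98; Zfp868 is highest in ESC.

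Zfp330 shows how far a probe can decide a value. Its brighter probe was above background on all 7 arrays, at 9.56 in marrow and 10.28 in ESC, 10.38, 10.70 and 10.72 in lines 1.1.2, 7 and 9, 10.34 in LinPos_iPSC and 11.24 in MEF_iPSC, a 2.07-fold rise (adjusted p = 0.0289) that was lost at adjusted p = 0.221 with arrays scaled to a common median, at 0.0932 with cyclic loess and at 0.0504 without line 9. Its other probe stood at 9.71 in marrow, 11.48 in MEF_iPSC and 7.15 in line 9, and was below background in ESC, lines 1.1.2 and 7 and LinPos_iPSC at 4.40 to 4.81. Whether Zfp330 rose therefore depends on the probe. Of 40 members with more than 1 probe above background, 21 were called against marrow, and in 19 of these all probes differed in the same direction. The 2 exceptions were Zfp330 and Zfp334. Some of the agreement was set in advance. Second probes of Zfp316, Zfp523, Zfp62, Zfp771 and Zfp787 were above background in marrow alone and could hardly differ in the other direction. That of Zfp428 was above background on 1 array only. The count is therefore a description.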

How the data were processed

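RNA of 7 samples (500 ng each, amplified by 12 h of in vitro transcription, per the labels' protocols) was hybridised to Illumina mouse bead arrays, 1 array per sample. The deposited table held 1 intensity per probe and array, neither background-subtracted nor scaled, judged from its values, and a detection p-value beside each deposited intensity, per the file headers. A deposited log2 table of the same arrays, with the same distribution on every array, came from the authors and served only as an alternative. BeadStudio 3.2, RMA and lumi are named, with no role or order, in the submitters' processing notes. Unused value columns numbered 0.

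Intensities were background-corrected with neqc (offset 16, controls inferred from the detection p-values), quantile-normalized and taken to log2 with limma 3.58.1 in R 4.3.3. Quantile normalization sets all arrays to 1 distribution, so a global shift in expression cannot be seen. Of 25697 probes, 23978 had 1 symbol, 0 had several and 1719 were not listed in the platform annotation; 23962 matched a GRCm38.p6 gene by identifier, for chromosome and gene order. Probes under a detection p of 0.01 on at least 1 array were kept, and the probe with the highest mean stood for its gene. The test was limma (lmFit and eBayes, two-sided, Benjamini-Hochberg over 9263 genes, threshold 0.05), with 2 groups against marrow (5 residual and 3.07 prior degrees of freedom) and 5 groups between lines (2 and 3.16). The number of arrays limits precision. A bound written "at least" sets a group below background on all its arrays at the higher of its own signal and the lowest signal called above background. The fits were tested on simulated data.

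Named genes were the 12 largest rises and 12 largest falls, the 3 widest gaps per direction between lines, the 10 highest SDs over the pluripotent arrays and the measured genes of the role and co-repressor lists. The members, lists and tests were chosen with earlier results of these data known. Alternatives were normexp (offset 50), scaling to a common median, cyclic loess, the authors' values, a filter of 3 arrays or none, another probe rule, other groupings of the fit and leaving out single arrays.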

Additional observations from a re-analysis of the deposited data

Results flagged for a closer look

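Zfp148, a factor that binds GC-rich promoters, stood apart in LinPos_iPSC. Its level there was 6.96, the lowest of the 6 pluripotent arrays, while the other 5 lay between 7.41 and 7.68, so the gap to the nearest array made up 0.635 of the range. It was the only gene past Dixon's critical value of 60 Zfp genes examined, and chance alone passes about 1 in 20 groups.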

How the results depend on the processing

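Between 32 and 49 Zfp genes were higher than in marrow and 33 to 66 lower across the alternatives, with 45 and 46 as reported. Scaling to a common median gave 32 and 66 (78 of 91 calls shared), the filter of 3 arrays, which tested fewer members, 44 and 33, and the 5-group fit of the lines 49 and 50. Leaving out single pluripotent arrays gave 88 to 96 calls in all. Against the lines, normexp background correction called 1 gene for MEF_iPSC (Zfp869, -1.65, adjusted p = 0.0271) and 2 for LinPos_iPSC (Zfp213, and Zfp553 at -0.90, adjusted p = 0.0214), and scaling called 1 for LinPos_iPSC (Zfp553, -1.23, adjusted p = 0.0434). Leaving out a line gave 0 calls in each of these comparisons (lowest 0, highest 0), and no alternative gave a call against ESC. Normexp also lowered the median SD over the 6 arrays to 0.163, from 0.255. Of 738 checks on single named genes, 720 kept their direction and side of the threshold, 11 lost it, 7 gained it and 0 turned direction; the losses were those of Zfp330, Zfp607a and Zfp91. Differences of genes dim in marrow varied in size across the alternatives, from 1.51 to 4.14 for Zfp37, and with normexp the calls of Zfp1 and Zfp780b, both dim in marrow, were lost. No paired analysis was possible because only the LinNeg_iPSC group holds more than 1 array and replicate numbers follow accession order.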
